A study of Homo sapiens with 6 samples.

Results

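The genes described here are the transcription factors that drive a mesenchymal transition, the filament gene VIM and the OVOL factors that oppose the transition, 9 genes of the 58302 in the deposited table: SNAI1, SNAI2, ZEB1, ZEB2, TWIST1, TWIST2, VIM, OVOL1 and OVOL2. They were chosen by gene symbol as a family and picked on the measured counts of these same libraries, so the difference between control and CYT in their own rows is given as a description, without p-values. All 9 symbols were found, and 6 of the 9 had enough counts to enter the fit over 15572 genes. TWIST1, TWIST2 and OVOL2 had too few counts for it.

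The RNA came from MDA-MB-231-DR, derived from the triple-negative mammary carcinoma line MDA-MB-231 by resistance to doxorubicin. According to the study's methods the resistant cells are kept in a low concentration of doxorubicin, so both groups share that background. There were 3 control libraries and 3 libraries of cells treated with Cyperotundone, a natural sesquiterpenoid abbreviated CYT. The dose and time used for the sequenced cells are not given in the sources used here, and both groups come from 1 resistant line. The study's statistics describe group data as averages over independent experiments, but neither that text nor the labels tie this to the sequenced libraries, so p-values measure the spread between these samples, which may be technical. The libraries held 14050849 to 17770102 counts in the control group and 13056270 to 14106017 in the CYT group. CYT replicate 2 stood apart, with a correlation across genes of 0.904 to 0.905 with the other CYT libraries, against 0.953 to 0.971 among control libraries. Without it the CYT minus control log2 fold changes were 3.18 for SNAI1, -1.40 for VIM and 10.81 for OVOL1.

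In an epithelial to mesenchymal transition, cells lose the junctions that hold an epithelium together and gain the shape and motility of mesenchymal cells. Factors of the SNAI, ZEB and TWIST families drive this by repressing epithelial genes, SNAI and ZEB through zinc fingers that bind E-box DNA and TWIST through a basic helix-loop-helix domain. OVOL1 and OVOL2 are zinc finger repressors that keep cells epithelial, in part by holding ZEB genes down, and vimentin, encoded by VIM, is the intermediate filament protein by which mesenchymal cells are usually recognised. MDA-MB-231 is known as a mesenchymal-like line with abundant vimentin and little E-cadherin.

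The Snail and OVOL proteins share a short repressor stretch at their very start, called the SNAG domain. The DNA that encodes it is shown for SNAI1 and OVOL1, picked because they had the clearest gains below. SNAI2 and OVOL2, of the same families, showed no such gain. These are the first 30 coding bases of 1 GENCODE release 29 transcript each of SNAI1 (chr20:49983060-49983089, plus strand) and OVOL1 (chr11:65787374-65787403, plus strand) on GRCh38, each within 1 exon. Capitals mark the bases of OVOL1 that are identical to SNAI1 at the same position.
SNAI1: atgccgcgctctttcctcgtcaggaagccc
OVOL1: ATGCCcCGCgCgTTCCTgGTgAaGAAGCCg
OVOL1 shared 23 of 30 bases with SNAI1.

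The study also measured Snail by qPCR and reported less Snail RNA after CYT in its doxorubicin-resistant lines, including the line sequenced here. The SNAI1 counts given below went the opposite way and were higher in the CYT libraries. The cause of this difference was not tested. The study's Snail primer pair is shown to place the qPCR amplicon on the gene counted here.
Snail forward primer: tcggaagcctaactacagcga
Snail reverse primer: agatgagcattggcagcgag
The forward primer matched the SNAI1 transcript without mismatch at transcript bases 103 to 123 in exon 1, and the reverse primer matched at bases 223 to 242 in exon 2, which gives an amplicon of 140 bases across the first splice junction.

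SNAI1, which encodes Snail, was higher in CYT than in control cells. Its counts were 298, 162 and 194 in control replicates 1, 2 and 3, and 1778, 563 and 1543 in the CYT replicates. CPM, the counts relative to library size scaled by the trimmed mean of M-values, were 18.4, 8.61 and 13.9 in control and 125, 40.0 and 122 in CYT libraries, so the groups did not overlap and CYT replicate 2 was the lowest of the treated libraries. The means were 13.7 ± 4.92 and 95.8 ± 48.4 CPM (SD, n = 3 each), a 7.02-fold difference, and the fitted log2 fold change was 2.81 ± 0.49 (SE). Within a replicate number the ratio of CYT to control was 6.79, 4.65 and 8.79. The replicate 2 library was the lowest in both groups, at 0.532 times the mean of the other two control libraries and 0.323 times that of the other two CYT libraries. No other annotated gene overlaps the SNAI1 locus (chr20:49982999-49988886, plus strand), and its pseudogene SNAI1P1 had no counts.

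SNAI2 encodes Slug, the close relative of Snail that is often the more abundant family member in basal breast lines. It had 47, 76 and 57 counts in control and 41, 35 and 48 in CYT libraries. The groups overlapped, with means of 3.68 ± 0.668 and 3.06 ± 0.677 CPM and a log2 fold change of -0.27 ± 0.39. Per kilobase of merged exon, SNAI1 exceeded SNAI2 12.8, 4.29 and 6.85 times in the control libraries and 87.2, 32.4 and 64.7 times in the CYT libraries. SNAI1 was therefore the higher of the pair in every library, and the ranges of this ratio did not overlap between groups. SNAI3-AS1, antisense to the third family member, had 179, 149 and 116 counts in control and 54, 20 and 34 in CYT libraries and fell (log2 fold change -1.78 ± 0.43, edgeR adjusted p = 0.0135, a call lost in 1 of 10 alternative fits). SNAI3 itself had 75, 42 and 36 counts in control and 19, 0 and 36 in CYT libraries. It did not pass the test (-1.18 ± 0.92, edgeR adjusted p = 0.366).

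ZEB1, the zinc finger homeobox repressor of E-cadherin, had 220, 396 and 139 counts in control and 142, 256 and 109 in CYT libraries. In CPM these were 13.6, 21.0 and 9.97 against 9.99, 18.2 and 8.64. The groups overlapped over most of their range, and the log2 fold change was -0.28 ± 0.41. Replicate 2 was the highest library of both groups, 1.78 times the mean of the other two in control and 1.95 times in CYT, so the spread between replicates was larger than the difference between groups. Within a replicate number the CYT level was 0.734, 0.864 and 0.867 times the control level. Without control replicate 2 the log2 fold change of ZEB1 was 0.039.

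ZEB2, its paralog, had 104, 166 and 61 counts in control and 85, 214 and 51 in CYT libraries. The levels were 6.43, 8.82 and 4.38 CPM against 5.98, 15.2 and 4.04 CPM, and the groups overlapped. Its log2 fold change was 0.36 ± 0.51. Only the pair numbered 2 had a higher CYT level, with ratios of 0.93, 1.72 and 0.924, and without CYT replicate 2 the log2 fold change was -0.39. Neither the level nor the direction of ZEB2 in the treated cells was therefore fixed by these 3 libraries. ZEB1 and ZEB2 shared this replicate 2 peak, and per kilobase of merged exon ZEB1 was 3.47 to 6.91 times ZEB2 in all 6 libraries.

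The ZEB1 locus (chr10:31318495-31529814, plus strand) overlaps the antisense gene ZEB1-AS1, which had 53, 93 and 45 counts in control and 107, 257 and 112 in CYT libraries. ZEB1-AS1 rose by a log2 fold change of 1.59 ± 0.43 (edgeR, adjusted p = 0.0222), a call lost in 2 of 10 alternative fits, and its counts over all libraries came to 52.9% of those of ZEB1. Whether counting used the strand is not given in the sources used here, so reads from ZEB1 and its antisense partner cannot be told apart where they overlap. The pseudogene SPTLC1P1 inside ZEB1 had 27 to 61 counts per library. ZEB2-AS1 had 1 count in all 6 libraries together, and the pseudogene ZEB2P1 had none.

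TWIST1 and TWIST2, the basic helix-loop-helix factors of the group, were close to undetected. TWIST1 had 0, 1 and 2 counts in control and none in CYT libraries. TWIST2 had 5, 0 and 0 counts in control and none in CYT libraries. A count of 0 allows up to 3 counts, which is 0.159 to 0.215 CPM in a control library and 0.211 to 0.238 CPM in a CYT library, counting error only, so no difference was detectable at this depth for either gene.

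VIM was by far the most abundant of the 9 genes and was lower in CYT cells. It had 36428, 44600 and 38144 counts in control and 13599, 15720 and 11463 in CYT libraries. All CYT libraries lay well below all control libraries. The means were 2453 ± 252 and 994 ± 109 CPM (SD, n = 3 each), 2.47-fold higher in control, with a log2 fold change of -1.30 ± 0.26 (SE). Within a replicate number the CYT level was 0.425, 0.471 and 0.332 times that of control. The coefficient of variation was 10.3% in control and 10.9% in CYT libraries, against 36.0% and 50.5% for SNAI1. VIM nevertheless kept a high rank after treatment, above 99.2% of the tested genes by mean CPM in CYT and above 99.8% in control.

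VIM (chr10:17228259-17237593, plus strand) overlaps the antisense genes VIM-AS1, with 76 to 176 counts per library, and AL133415.1, with 45 to 342. Their counts over all libraries were 0.510% and 0.568% of those of VIM, and neither passed the test, with log2 fold changes of 0.12 ± 0.42 (edgeR, adjusted p = 0.852) and -0.074 ± 0.60 (adjusted p = 0.941). The pseudogene VIM2P had no counts. In bulk RNA, fewer cells that express VIM and less VIM RNA in each cell cannot be told apart.

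OVOL1 went from undetected to clearly counted. No read was counted in any of the 3 control libraries, whereas the CYT libraries had 215, 124 and 183 counts, or 15.1, 8.81 and 14.5 CPM. The mean CYT level of 12.8 ± 3.48 CPM (SD, n = 3) was at least 68.6-fold higher than control when 3 counts are allowed in each control library, and 62.4 to 79.4-fold with any CYT library left out. The fitted log2 fold change of 10.58 ± 0.79 depends on the prior count and is no measure of the size. As for SNAI1, CYT replicate 2 was the lowest treated library, at 0.594 times the mean of the other two. OVOL1-AS1, which overlaps OVOL1 (chr11:65787022-65797219, plus strand), had 4, 0 and 3 counts in CYT and none in control libraries.

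OVOL1 was 1 of 20 genes that had no counts in any control library and at least 30 in every CYT library, limits set after its values were seen. Of 39273 genes with at most 3 counts in every control library, 72 or 0.183% had at least 30 in every CYT library. In the other direction the share was 0.0195%, 7 of 35880 genes. The treated libraries thus held more newly counted genes than lost genes. OVOL2 did not share the pattern of OVOL1, with no counts in control and 2, 0 and 0 counts in CYT libraries, all within the limit that a count of 0 allows. Its locus overlaps SNX5 and MGME1, both counted in every library.

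**Figure D1:**
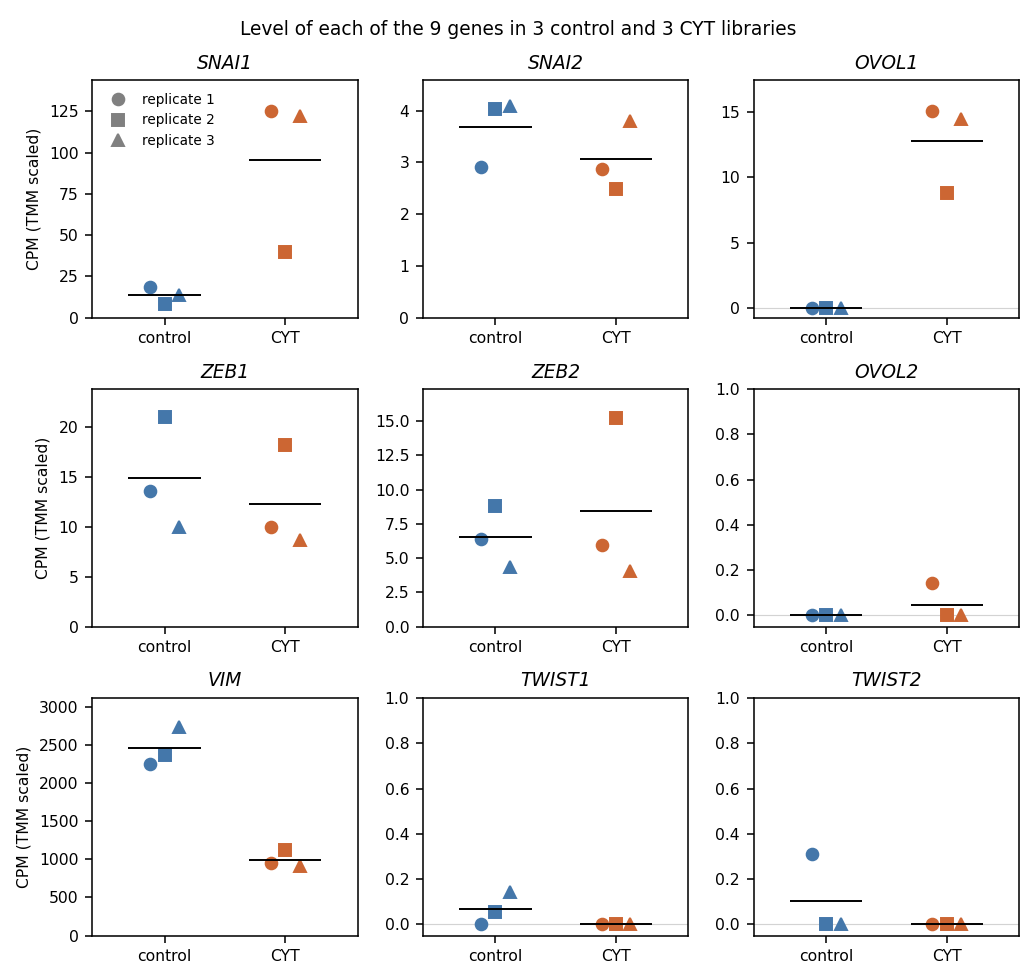
Each panel shows 1 gene, with CPM scaled by the trimmed mean of M-values on a linear axis, control libraries in blue and CYT libraries in orange, a marker shape for each replicate number and a horizontal line at the group mean. SNAI1 and OVOL1 lie higher and VIM lower in all 3 CYT libraries, ZEB1 and ZEB2 peak in replicate 2 of both groups, and TWIST1, TWIST2 and OVOL2 stay below 0.4 CPM.

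A gene was called when its edgeR quasi-likelihood p, adjusted over all tested genes, was under 0.05. SNAI1 and OVOL1 were called higher, 2 of the 6 tested genes, where 15.7% of all tested genes were called higher. VIM was called lower, 1 of 6, where 12.9% of all genes were called lower. For these 3 of 6 genes the groups did not overlap in CPM, as was so for 46.1% of all tested genes. Since the genes were chosen with these values known, nothing is read from the counts. With a library left out, the log2 fold changes of SNAI1, OVOL1 and VIM ran from 2.56 to 3.18, from 10.46 to 10.81 and from -1.40 to -1.22.

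**Figure D2:**
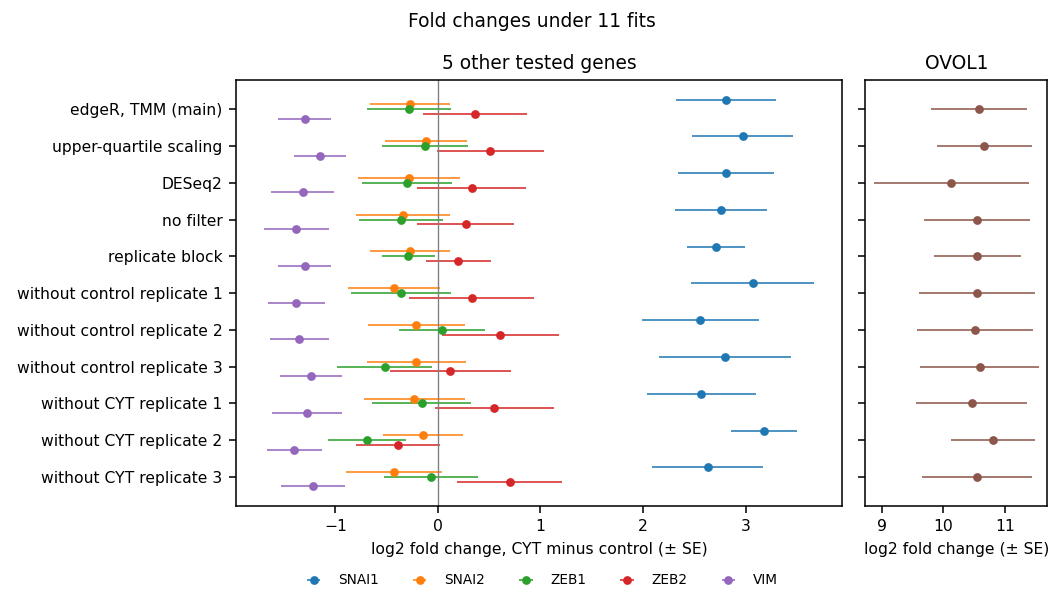
The horizontal axis is the log2 fold change, CYT minus control, with bars of 1 SE, and each line of the vertical axis is 1 of 11 fits, the first being edgeR with scaling by the trimmed mean of M-values. OVOL1 has its own panel and axis. SNAI1 stays between 2.56 and 3.18 and VIM between -1.40 and -1.15, whereas ZEB1 and ZEB2 lie on either side of 0 depending on the library left out.

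The 9 genes were also ordered by level per length within each group. By the FPKM the authors deposited, the control order was VIM (247 ± 31.7), SNAI1 (7.93 ± 2.40), SNAI2 (1.40 ± 0.322), ZEB1 (0.747 ± 0.325) and ZEB2 (0.127 ± 0.0493), with TWIST2, TWIST1 and both OVOL genes at or near 0. SNAI2 and ZEB1 overlapped in control, and the other neighbours among these 5 did not. In CYT libraries the order was VIM (102 ± 18.1), SNAI1 (56.2 ± 26.7), OVOL1 (2.47 ± 0.573), SNAI2 (1.16 ± 0.177), ZEB1 (0.630 ± 0.307) and ZEB2 (0.169 ± 0.130), and no 2 neighbours among these 6 overlapped. OVOL1 thus stood above both ZEB genes in the CYT libraries. Whether OVOL1 repressed the ZEB genes here was not tested.

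The scale of these FPKM values differs from gene to gene. Count and FPKM together give the length the authors divided by, and in 92.1% of 10158 genes this equalled, within 1 bp, the summed length of all distinct exon records of the gene in GENCODE release 29, so that overlapping exons of different transcripts were added up more than once. It equalled the merged exonic length in 8.38%. The length used for VIM was 9896 bases against 5158 merged exonic bases, and for ZEB1 20007 against 8650. The ratio was 1.92 for VIM, 2.31 for ZEB1, 2.06 for ZEB2, 1.34 for OVOL1 and 1.0 for SNAI1, and 0.777 for SNAI2, whose gene model in the table differs from that release. Deposited FPKM therefore sets VIM, ZEB1 and ZEB2 low beside SNAI1.

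Per kilobase of merged exon, a scale chosen after seeing the data, VIM stood at 476 ± 48.9 CPM and SNAI1 at 8.10 ± 2.92 CPM in control, a ratio of means of 58.7 against 31.1 in FPKM. In CYT they stood at 193 ± 21.1 and 56.8 ± 28.7 CPM per kilobase, a ratio of 3.39 against 1.81 in FPKM. ZEB1 moved above SNAI2 in both groups, at 1.72 ± 0.652 against 1.08 ± 0.197 in control and 1.42 ± 0.597 against 0.902 ± 0.2 in CYT, and this pair overlapped in both groups. Of the 72 pairwise orders over both groups, 2 changed, both of them this pair. Library by library, VIM exceeded SNAI1 per kilobase 40.0, 90.0 and 64.3 times in control and 2.50, 9.13 and 2.43 times in CYT libraries.

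**Figure D3:**
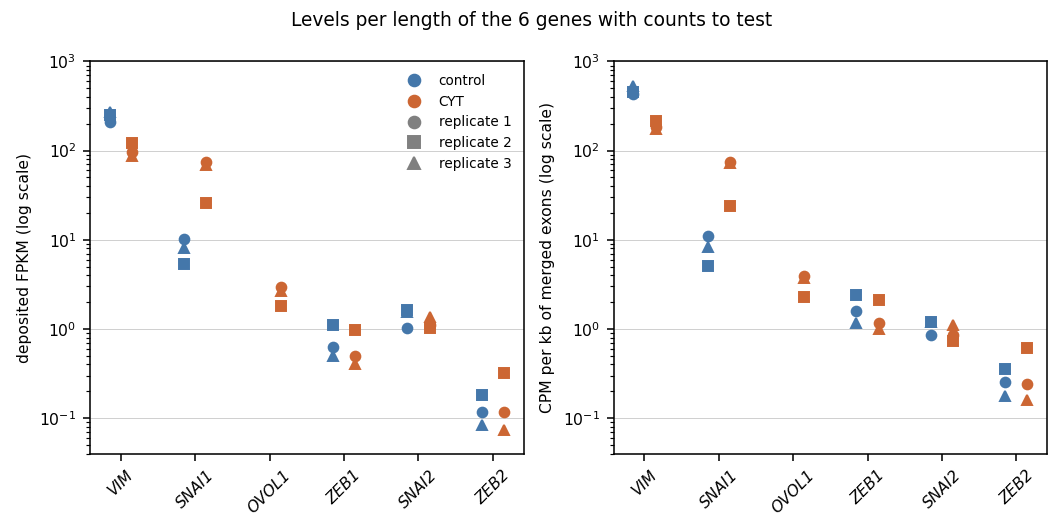
Both panels show the level of 6 genes in each library on a logarithmic vertical axis, as deposited FPKM on the left and as CPM per kilobase of merged exon on the right, with control in blue, CYT in orange and a marker shape for each replicate number. OVOL1 has no control points because its control counts are 0. VIM is the highest gene on both scales, and ZEB1 and SNAI2 change places between the panels.

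For VIM and for SNAI1, the transition factor with the highest FPKM, the tested genes with the most similar log2 CPM over the 6 libraries were looked up. For VIM these were RAP2B, HMGB3 and SLC25A12, with Pearson's r of 0.9987, 0.998 and 0.9976. For SNAI1 they were TP53INP2, FAM117A and PDCD4-AS1, with r of 0.9982, 0.9977 and 0.9974. All 6 points share 1 contrast, and 39 and 36 genes had an r over 0.99 with VIM and SNAI1.

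Epithelial genes that these factors are known to repress were read next. Of 36 listed genes 24 were tested, and 1 rose (4.17%, beside 15.7% of all tested genes) and 3 fell (12.5%, beside 12.9%). The median log2 fold change was -0.37 beside 0.0064 over all tested genes. CDH1, which encodes E-cadherin, had no counts in control and 6, 16 and 2 in CYT libraries, too few to test. DSP, the desmosome linker desmoplakin, rose from 63.9 ± 13.9 to 132 ± 41.0 CPM (log2 fold change 1.05 ± 0.33, edgeR adjusted p = 0.0402), a call that was lost in 6 of 10 alternative fits. PKP3, a desmosomal plakophilin, fell from 116 ± 26.0 to 18.6 ± 9.71 CPM (-2.63 ± 0.46, adjusted p = 0.0033). LLGL2, a polarity protein of the basolateral membrane, fell from 47.4 ± 11.4 to 14.5 ± 5.97 CPM (-1.70 ± 0.38, adjusted p = 0.00975). ELF3, an epithelial ETS factor below the level set for naming and named after its values were seen, also fell, from 3.98 ± 2.07 to 0.593 ± 0.272 CPM (-2.73 ± 0.62, adjusted p = 0.0106). With the replicate number as a block 7 genes were called lower. Without CYT replicate 2 there were 2 calls higher and 6 lower, and no gene was called higher without control replicate 1, 2 or 3 or without CYT replicate 1 or 3.

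To show where the SNAI and ZEB factors could bind, the E-box letters CACCTG and CAGGTG, which are each other's reverse complement and so cover both strands, were searched in RefSeq promoter windows on GRCh38.p14 that run from 250 bases before to 50 bases after a gene start. They were found in 20.6% of 35116 windows of all genes. Of the 9 genes, VIM, ZEB1, ZEB2 and TWIST2 had windows, and 2 of their 10 windows held the letters, both at starts of ZEB1. Of 29 windows of the epithelial list 17 held them. These windows came from 22 of the 36 listed epithelial genes, and CDH1, PKP3 and LLGL2 had none. The windows of VIM (chr10:17227991-17228290, plus strand), of the ZEB1 start with 3 matches (chr10:31318966-31319265, plus strand), and of the epithelial genes ELF3 (chr1:202010337-202010636, plus strand) and DSP (chr6:7541421-7541720, plus strand) are shown, ELF3 and DSP because they hold the letters and were called in opposite directions. Capitals mark the E-box letters.
VIM: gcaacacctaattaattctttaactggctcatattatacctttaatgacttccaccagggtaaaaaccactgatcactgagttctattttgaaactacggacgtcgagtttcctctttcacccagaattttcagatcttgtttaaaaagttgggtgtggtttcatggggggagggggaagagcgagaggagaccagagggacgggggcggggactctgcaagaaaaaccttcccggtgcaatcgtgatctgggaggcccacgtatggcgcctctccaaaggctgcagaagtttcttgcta
ZEB1: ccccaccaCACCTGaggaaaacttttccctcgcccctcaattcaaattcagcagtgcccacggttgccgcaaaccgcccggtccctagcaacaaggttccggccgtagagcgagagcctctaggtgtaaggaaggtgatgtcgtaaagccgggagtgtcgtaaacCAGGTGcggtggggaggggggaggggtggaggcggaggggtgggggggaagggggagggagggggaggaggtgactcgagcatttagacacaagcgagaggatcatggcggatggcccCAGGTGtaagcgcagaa
ELF3: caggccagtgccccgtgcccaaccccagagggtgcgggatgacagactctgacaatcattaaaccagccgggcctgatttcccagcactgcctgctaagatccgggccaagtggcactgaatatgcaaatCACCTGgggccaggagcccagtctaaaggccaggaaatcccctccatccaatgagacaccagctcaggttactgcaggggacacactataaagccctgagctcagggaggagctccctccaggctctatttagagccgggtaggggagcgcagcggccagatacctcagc
DSP: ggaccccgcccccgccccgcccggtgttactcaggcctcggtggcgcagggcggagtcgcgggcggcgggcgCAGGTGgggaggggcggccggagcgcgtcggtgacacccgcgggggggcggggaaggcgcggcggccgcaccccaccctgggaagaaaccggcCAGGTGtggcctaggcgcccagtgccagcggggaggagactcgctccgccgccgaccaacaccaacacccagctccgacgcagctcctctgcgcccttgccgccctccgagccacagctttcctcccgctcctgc
The VIM window held no match, the ZEB1 window 3, the ELF3 window 1 and the DSP window 2. A match describes the letters alone, and binding was not measured here.

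Mesenchymal genes other than VIM were called in both directions. Of 40 listed genes 27 were tested, and 7 rose (25.9%, beside 15.7% of all tested genes) and 7 fell (25.9%, beside 12.9%). The log2 fold change was positive in 11 of the 27, with a median of -0.20. ACTA2, smooth muscle actin, rose from 6.10 ± 0.776 to 32.9 ± 10.7 CPM (2.43 ± 0.36, edgeR adjusted p = 0.00177). WNT5A, a noncanonical Wnt ligand, rose from 10.2 ± 1.6 to 41.1 ± 19.5 CPM (2.01 ± 0.39, adjusted p = 0.00491), and TAGLN, the actin binding protein transgelin, from 1.52 ± 0.0817 to 5.74 ± 1.91 CPM (1.91 ± 0.41, adjusted p = 0.0085). Among the genes that fell were PDGFRB, a growth factor receptor of stromal cells, from 11 ± 4.59 to 1.90 ± 1.34 CPM (-2.54 ± 0.61, adjusted p = 0.0129, a call lost in 1 of 10 alternative fits), and COL1A1, fibrillar collagen, from 15 ± 4.09 to 3.35 ± 0.550 CPM (-2.16 ± 0.36, adjusted p = 0.00264). CDH11, a mesenchymal cadherin, fell from 22.5 ± 9.04 to 5.52 ± 1.68 CPM (-2.02 ± 0.42, adjusted p = 0.00674). CDH2, which encodes N-cadherin, had 3, 0 and 2 counts in control and 0, 7 and 0 in CYT libraries and was not tested. The calls lower numbered 4 under upper-quartile scaling and 3 without control replicate 1, 4 without CYT replicate 1 and 4 without CYT replicate 3, and the calls higher 4 without control replicate 3.

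Among other transition factors and the co-repressors that SNAI and ZEB proteins recruit, 42 of 44 were tested, and 8 rose (19.0%, beside 15.7% of all tested genes) and 9 fell (21.4%, beside 12.9%). The ID genes encode inhibitors of the E proteins with which TWIST factors pair, and of the 4 genes ID2 rose, ID1 and ID3 fell and ID4 did not pass the test. ID2 had 37, 79 and 46 counts in control and 3428, 1371 and 2844 in CYT libraries, a rise with a log2 fold change of 5.84 ± 0.49 (edgeR, adjusted p = 0.000312). ID3 had 3071, 3081 and 2319 counts in control and 607, 256 and 515 in CYT libraries, a fall of -2.35 ± 0.37 (adjusted p = 0.00228). The log2 fold change of ID1 was -1.28 ± 0.32 (adjusted p = 0.0167) and that of ID4 -0.44 ± 0.31 (adjusted p = 0.317). CYT replicate 2 was the lowest treated library for ID2, as it was for SNAI1 and OVOL1. FOXC1, a forkhead factor, rose from 12.5 ± 1.98 to 55.3 ± 7.41 CPM (2.15 ± 0.30, adjusted p = 0.00142), and SOX4, an HMG-box factor, from 26.4 ± 3.34 to 60.3 ± 19.1 CPM (1.19 ± 0.32, adjusted p = 0.0219). The calls of SOX4 and ID1 were each lost in 2 of 10 alternative fits. EHMT2, the histone methyltransferase G9a that Snail recruits, fell from 146 ± 34.5 to 37.6 ± 14.7 CPM (-1.96 ± 0.38, adjusted p = 0.00523), and HMGA2, a chromatin protein that promotes SNAI1 and TWIST1 expression, from 41.1 ± 8.08 to 11.8 ± 3.05 CPM (-1.80 ± 0.33, adjusted p = 0.00401). The calls higher numbered 3 when control replicate 1, 2 or 3 or CYT replicate 1 or 3 was left out, and 5 with no filter. The calls lower numbered 5 without control replicate 1, 4 without control replicate 3 and 4 without CYT replicate 3.

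Snail protein is short-lived, and 34 genes that modify, degrade or stabilise these factors were examined at the RNA level. Of the 32 tested, 2 rose and 2 fell (6.25% each, beside 15.7% and 12.9% of all tested genes), with a median log2 fold change of -0.031. USP27X, a deubiquitinase known to stabilise Snail, had 33, 33 and 12 counts in control and 117, 115 and 113 in CYT libraries and rose by 2.43 ± 0.42 on the log2 scale (edgeR, adjusted p = 0.00305). FBXL14, a ubiquitin ligase subunit that targets Snail for degradation, rose from 16.2 ± 2.56 to 31.7 ± 5.76 CPM (0.97 ± 0.30, adjusted p = 0.0393), a call lost in 6 of 10 alternative fits. PSMD14, a proteasome deubiquitinase, fell from 92.2 ± 11.8 to 30.5 ± 12.9 CPM (-1.6 ± 0.35, adjusted p = 0.00936), and PAK1, a kinase that phosphorylates Snail and vimentin, from 55.0 ± 8.98 to 27.1 ± 1.45 CPM (-1.02 ± 0.28, adjusted p = 0.0245), a call lost in 4 of 10. Only the RNA was measured, so protein turnover was not tested. The calls higher numbered 1 without control replicate 1, 2 or 3 or CYT replicate 1 or 3. The calls lower numbered 1 without control replicate 1 or 3 or CYT replicate 1 or 3, and 6 without CYT replicate 2.

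Genes whose products build, anchor or phosphorylate the vimentin network were called in part. Of 38 listed genes 36 were tested, and 12 fell (33.3%, beside 12.9% of all tested genes). None was called higher, beside 15.7% of all tested genes, and 1 gene, CDK1, was higher at an unadjusted p under 0.05. The median log2 fold change was -0.71 beside 0.0064 over all tested genes. PLEC, the crosslinker plectin, had 28929, 13323 and 13421 counts in control and 2459, 1499 and 4321 in CYT libraries (-2.48 ± 0.50, edgeR adjusted p = 0.00598). PLK1, a mitotic kinase that acts on vimentin, fell from 289 ± 46.1 to 33.1 ± 8.80 CPM (-3.13 ± 0.33, adjusted p = 0.000544). PLK1 and AURKB are also genes of dividing cells, and AURKB fell from 77.1 ± 15.5 to 15.2 ± 6.3 CPM (-2.34 ± 0.39, adjusted p = 0.0026). CDK1 of the same list is another such gene and did not pass the test (1.12 ± 0.40, adjusted p = 0.0636). The part of the cell cycle in these values was not tested. Under upper-quartile scaling, DESeq2, the replicate block or without control replicate 2, 1 gene was called higher, and without control replicate 1 the calls lower numbered 6.

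**Figure D4:**
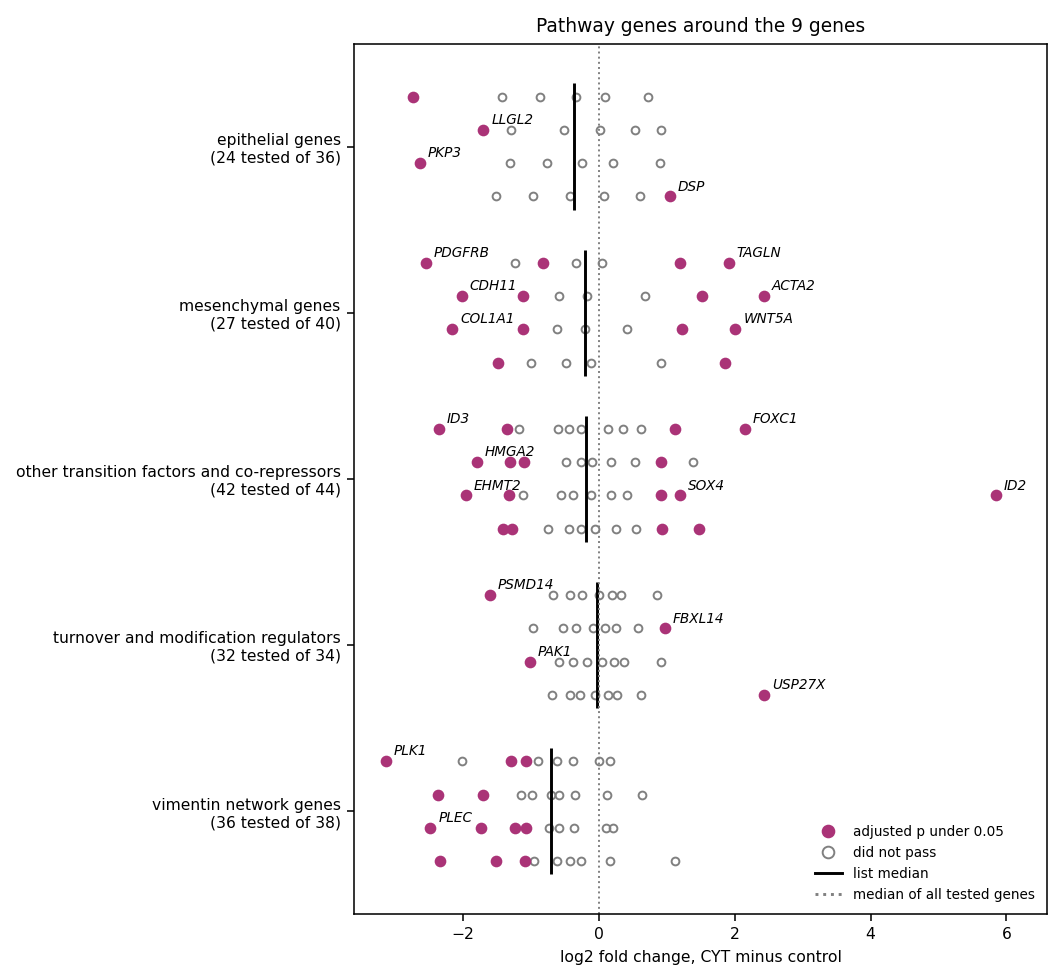
Every point is 1 tested gene of a pathway list, placed by its log2 fold change, CYT minus control, on the horizontal axis, with filled points for an adjusted p under 0.05, open points for the rest, a black line at the list median and a dotted line at the median of all tested genes. The vertical offset within a list only separates the points. Filled points lie on both sides in 4 lists and on the lower side alone in the vimentin network list, and ID2 lies furthest to the right at 5.84.

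Marker genes were read as a check of the labelled line. All 12 markers of MDA-MB-231 were counted in every library, with a summed level of 3447 to 5122 CPM in control and 2251 to 3259 CPM in CYT libraries. The luminal marker ESR1 had at most 4 and PGR at most 3 counts in any library, and 3 of the 12 luminal markers were under 1 CPM in control. Summed luminal markers lay between 441 and 712 CPM in control and 167 and 205 CPM in CYT libraries, basal markers between 559 and 903 and between 336 and 655 CPM, and leukocyte markers between 8.82 and 24.9 and between 11.3 and 19.3 CPM, with CD3E at 0 throughout. Most of the luminal sum in control came from KRT19 (200.1 to 416 CPM), XBP1 (119 to 155 CPM) and MLPH (55.1 to 94.0 CPM), and SPDEF stood at 7.12 to 14.7 CPM. The basal sum was mostly LAMB3, at 548 to 889 CPM in control and 324 to 644 CPM in CYT libraries, while 7 of the 12 basal markers were under 1 CPM in each group and KRT5, KRT14 and KRT6A had no counts in control. The part of any change in cell makeup in the values above was not tested.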

How the data were processed

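RNA of 3 control and 3 CYT libraries was sequenced on a NovaSeq, and per the study's methods reads were cleaned and aligned with Hisat2, with Stringtie named for FPKM and a program called edge for quantification. The processing notes name hg38 and FastQC 0.12.1. The program that made the deposited raw counts, the annotation and the strand setting are not given in the sources used here. The authors deposited raw read counts per gene and FPKM for 58302 genes. Counts were used for every test and FPKM for levels between genes only. Groups and replicate numbers came from the sample titles.

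Counts were fitted with edgeR 4.0.16 in R 4.3.3 (filterByExpr with minimum count 10, scaling by the trimmed mean of M-values, quasi-likelihood test, Benjamini-Hochberg adjustment over 15572 genes). The SE was the log2 fold change divided by the square root of F. Scripts were tested on simulated data. The genes and the 5 pathway lists were chosen with earlier results of these data known. Named genes are the 9 members, CDH1, CDH2, antisense genes and pseudogenes of the families, and per list up to 3 rises and 3 falls with the largest change, taken among genes whose groups did not overlap and whose mean reached 5 CPM in a group. Named outside this rule were SNAI3, ELF3, ID1, ID4, AURKB, CDK1, genes that overlap a member, genes with levels similar to VIM or SNAI1, and marker genes. Of the listed symbols TWIST1P1 was not found, and PALS1 was matched by its identifier. A gene that the naming rule selects is not reported here. A permutation test of 3 against 3 libraries cannot go below p = 0.1 and was not used.

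The deviations of same-numbered libraries from their group means had an r across genes of 0.188, 0.458 and 0.124. Pairs of different numbers ran from -0.367 to 0.303, so only number 2 stood above all of them. The labels do not say whether the numbers mark pairs. The main fit used no block, and the replicate block was an alternative. Replicates of a group differed by a chi-square of at least 22.1 per gene, so none was a copy. Alternatives were upper-quartile scaling, DESeq2 1.42.0, no filter, the replicate block and each library left out, and the scale per merged exonic length was added after the data were seen.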

Additional observations from a re-analysis of the deposited data

How the results depend on the processing

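Of 60 member fold changes recomputed under 10 alternative fits, 2 changed sign: ZEB1 was 0.039 ± 0.42 without control replicate 2, and ZEB2 was -0.39 ± 0.41 without CYT replicate 2. With a library left out, ZEB1 ran from -0.69 to 0.039 and ZEB2 from -0.39 to 0.70. Over all tested genes the calls numbered 4451, 6210 with the replicate block, 5752 without CYT replicate 2 and 2891 without control replicate 3, and 5557 with DESeq2. Upper-quartile scaling moved the median over all genes to a log2 fold change of 0.16.

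The list counts moved more. With DESeq2 there were 2 epithelial genes higher and 5 lower and 1 vimentin network gene higher. With the replicate block there were 7 epithelial genes lower and 1 vimentin network gene higher, and the block left the direction of each member as it was. Upper-quartile scaling gave 4 mesenchymal genes lower and 1 vimentin network gene higher. No filter gave 5 other transition factors and 1 turnover gene higher. With a library left out, the calls higher and lower ran from 0 to 2 and 3 to 6 for epithelial genes, from 4 to 7 and 3 to 6 for mesenchymal genes, from 3 to 8 and 4 to 10 for other transition factors, from 1 to 2 and 1 to 6 for turnover genes, and from 0 to 1 and 6 to 17 for vimentin network genes. The cause of these moves was not tested. Levels per merged exonic length changed 2 of 72 pairwise orders. With 13056270 to 17770102 counts per library, TWIST1, TWIST2, OVOL2, CDH1 and CDH2 were too low to compare.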

Other observations

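Of 12 luminal markers 9 were tested, and 3 fell, SPDEF, KRT19 and MLPH, where 12.9% of all tested genes fell. The other 6, GATA3, FOXA1, TFF3, XBP1, AGR2 and TRPS1, did not pass the test, with log2 fold changes from -0.73 for GATA3 to 0.42 for FOXA1. SPDEF, an ETS factor of luminal and secretory epithelium, had 238, 134 and 157 counts in control libraries and none in the 3 CYT libraries, at least 50-fold lower when 3 counts are allowed in each CYT library (edgeR, adjusted p = 0.00052). It was the only gene of the table with no counts in any CYT library and at least 30 in every control library, the reverse of OVOL1. KRT19, a simple epithelial keratin, had 6722, 3767 and 3395 counts in control and 546, 147 and 378 in CYT libraries (-3.45 ± 0.52, adjusted p = 0.00187), so a keratin and vimentin were both lower. MLPH, melanophilin, fell by 2.30 ± 0.43 on the log2 scale (adjusted p = 0.00412).

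Among the 12 markers of the MDA-MB-231 line, 4 fell, where 12.9% of all tested genes fell. EGFR, the epidermal growth factor receptor, had 3104, 3090 and 1820 counts in control and 486, 191 and 376 in CYT libraries (-2.65 ± 0.40, edgeR adjusted p = 0.00186). PLAU, the urokinase gene, fell by 2.12 ± 0.29 on the log2 scale (adjusted p = 0.00131), and its receptor PLAUR by 0.91 ± 0.30 (adjusted p = 0.0472), a call lost in 7 of 10 alternative fits. AXL, a receptor tyrosine kinase, fell by 0.82 ± 0.27 (adjusted p = 0.0444), a call lost in 8 of 10. KRT15 was the basal marker that fell, with 101, 46 and 74 counts in control and 24, 13 and 16 in CYT libraries (-1.84 ± 0.50, adjusted p = 0.0213), a call lost in 3 of 10 alternative fits. CD14 was the leukocyte marker that rose, with 10, 4 and 19 counts in control and 51, 59 and 49 in CYT libraries (2.43 ± 0.61, adjusted p = 0.0157), a call lost in 1 of 10 alternative fits.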
